A study of Mus musculus with 6 samples.

Results

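Notch signalling was examined through 10 genes in immortalized mouse pancreatic fibroblasts: the receptors Notch1, Notch2 and Notch3, the ligands Jag1 and Jag2, the transcriptional effectors Hes1, Hey1, Hey2 and Heyl, and the feedback inhibitor Nrarp. Members were chosen by gene symbol in the counts table, which lists 14831 genes. Of the 10, 8 have a row and all 8 passed the expression filter, each with at least 10 counts in every library, whereas Heyl and Nrarp are not listed in the counts table used here, by symbol or by Ensembl identifier, and have no value below. RNAseq was performed on 6 libraries of polyadenylated RNA, 3 with the genotype label WT and 3 with the label Gli2-/-;Gli3-/- (here labelled KO), all of mixed strain and each from its own confluent culture well. Per the study, such fibroblast lines were grown out from the adult pancreas of mice with floxed Gli alleles, immortalized and infected with virus. Its methods list a GFP adenovirus and a dsRed lentivirus for control lines, and GFP and Cre adenoviruses for KO lines. The spread between wells is that of growing and preparing each sample, and the labels do not say whether the wells of a group came from more than 1 line.

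Notch receptors are single-pass proteins that are activated by ligands on a neighbouring cell. Ligand binding exposes the receptor to cleavage by an ADAM protease and then by gamma-secretase, and the released intracellular domain enters the nucleus, where it joins the DNA-binding protein RBPJ and a Mastermind coactivator to switch on genes of the Hes and Hey families. Hes and Hey proteins are basic helix-loop-helix repressors, and Nrarp limits the pathway by destabilizing the intracellular domain. Jagged ligands and Notch2 are common in fibroblasts, Notch3 is best known from the mural cells of blood vessels, and Dll4 and Notch4 are best known from endothelium. Transcript levels do not report receptor cleavage, so the values below are of mRNA and not of pathway activity.

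The genes named by the labels were read first. Gli2 had 809, 944 and 868 counts in the WT-labelled libraries and 1932, 2316 and 1926 in the KO-labelled ones, and Gli3 had 392, 416 and 398 against 1434, 1637 and 1404. Both were higher in every KO-labelled library, which goes against the genotype label, while the Hedgehog targets Gli1 (40, 50 and 37 against 4, 10 and 13 counts) and Ptch1 (7046, 7912 and 7834 against 2732, 3416 and 2851 counts) were lower there, the direction that a loss of Gli activators would give. The study checked deletion in its lines by qPCR and western blot, and those measurements were not analysed here. The counts cover whole genes and do not show which exons the reads came from. For this reason the groups carry the words labelled WT or KO-labelled here, and each direction given below depends on labels with which the levels of Gli2 and Gli3 are at odds. Libraries held between 31728420 and 41035931 counts on genes, so that 3 counts correspond to between 0.0720 and 0.0957 CPM (counts scaled to a common library size, here with TMM factors). Of 10 fibroblast markers, 8 were listed, with a summed level of 44822 to 47236 CPM in the WT-labelled libraries and 36783 to 38533 in the KO-labelled ones. Of the 7 tested, 4 were called lower in the KO-labelled libraries, the proteoglycan Dcn (log2 fold change -1.55), the collagen Col3a1 (-0.94) and the growth factor receptors Pdgfra (-0.90) and Pdgfrb (-0.66), and 0 were called higher. By the rule given in the next paragraph, 6.10% of all tested genes were called lower and 11.6% higher. Col1a1, Col1a2 and Vim were not called, and Pdpn and Fap are not listed in the counts table used here. Thy1 had 4, 1 and 0 counts in the WT-labelled libraries and 19, 15 and 9 in the KO-labelled ones. It was higher there without overlap and was not tested.

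Changes are given as labelled KO relative to labelled WT, and a gene was called at an adjusted p under 0.05 (edgeR's quasi-likelihood F test, Benjamini-Hochberg over the 14289 genes tested) and a change of at least 1.5-fold. By this rule 17.7% of all tested genes were called, with 11.6% on the higher side and 6.10% on the lower side. Of the 8 members, 1 was called higher (Notch1) and 1 lower (Hey2). With no fold limit, 5 of the 8 passed the test (3 were higher, 2 were lower), where 58.7% of all tested genes passed. In 6 of the 8 the scaled levels of the groups did not overlap, as in 64.2% of all tested genes. The median log2 fold change of the 8 members was 0.24, and that of all tested genes was 0.00.

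The 2 called members are shown with the sequence before their start sites, because RBPJ is the DNA-binding factor of the pathway and a match to its core motif can be looked up there. Sequences are from RefSeq on GRCm38.p6, printed 5′ to 3′ on the strand of the gene, and stop before the first annotated base of the transcript. Capitals mark a match to the RBPJ core TGGGAA, here on the opposite strand. Hey2 lies at chr10:30842802-30843033 on the minus strand, and Notch1 at chr2:26503823-26504072 on the minus strand.
Hey2: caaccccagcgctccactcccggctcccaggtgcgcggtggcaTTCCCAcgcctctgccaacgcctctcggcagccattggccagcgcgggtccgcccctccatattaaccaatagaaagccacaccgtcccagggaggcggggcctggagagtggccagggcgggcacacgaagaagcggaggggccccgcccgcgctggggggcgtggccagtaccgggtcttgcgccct
Notch1: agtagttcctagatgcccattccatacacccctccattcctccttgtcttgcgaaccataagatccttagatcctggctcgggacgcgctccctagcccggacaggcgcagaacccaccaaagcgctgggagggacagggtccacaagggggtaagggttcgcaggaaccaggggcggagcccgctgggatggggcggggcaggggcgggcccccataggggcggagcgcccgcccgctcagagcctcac

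Promoter windows of 250 bases before to 50 bases after the RefSeq start were matched for 7 of the 10 members, all but Hes1, Hey1 and Heyl. TGGGAA, searched on both strands, was found in 25.6% of 32851 such windows and in 1 of the 7 members, Hey2. Its window held 2 matches, starting 207 and 3 bases before the RefSeq start. The second is not in the stretch printed above, because GENCODE places the 5′ end of Hey2 18 bases further upstream than RefSeq. The longer form GTGGGAA, which contains the core, was found in 6.38% of windows and in Hey2. The GLI motif TGGGTGGTC was found in 0.253% of windows and in 0 of the 7, and its core GGGTGG in 31.5% of windows and in the windows of Nrarp and Jag2. These matches describe letters in a window and do not show binding. For Notch1, GENCODE places the 5′ end of the gene 12841 bases further upstream than RefSeq, so the printed window is inside the gene as GENCODE draws it.

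Among the receptors, Notch1 rose and the far more abundant Notch2 did not pass the fold limit. Notch1 (ENSMUSG00000026923.15, chromosome 2 from 26457903 to 26516663 on the minus strand, positions here and below from GENCODE M21 on GRCm38) had 123, 160 and 169 counts in the WT-labelled libraries and 292, 348 and 322 in the KO-labelled ones. Every KO-labelled library was above every WT-labelled library. This corresponds to 4.67 ± 0.691 and 8.78 ± 0.842 CPM (SD, n = 3 each) and to a 1.88-fold higher level, a log2 fold change of 0.91 (standard error 0.11, 95% interval 0.66 to 1.15, edgeR adjusted p = 1.61e-05). Notch1 shares 1068 exonic bases, 7.50% of its exonic length, with 0610009E02Rik on the opposite strand, and whether counting used strand is not given in the sources used here. That gene had 18, 23 and 32 counts in the WT-labelled libraries and 26, 36 and 27 in the KO-labelled ones (edgeR adjusted p = 0.750). How many reads fell in the shared bases is not known from these counts, and the part of the overlap in the Notch1 result was not tested.

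Notch2 (ENSMUSG00000027878.11, chromosome 3 from 98013527 to 98150361, plus strand) had 7629, 8173 and 8261 counts in the WT-labelled libraries and 7415, 8888 and 7747 in the KO-labelled ones. Scaled for depth, these are 249 ± 8.69 and 219 ± 13.6 CPM, and the KO-labelled libraries were the 3 lowest. Its log2 fold change of -0.18 (standard error 0.04, 95% interval -0.28 to -0.09, edgeR adjusted p = 0.00263) lies inside the 1.5-fold limits over its whole interval, so Notch2 was not called. Notch3 (ENSMUSG00000038146.8, chromosome 17 from 32120820 to 32166852, minus strand), a receptor of mural cells and some fibroblasts, had 223, 243 and 221 counts in the WT-labelled libraries and 228, 282 and 238 in the KO-labelled ones, or 7.10 ± 0.167 and 6.81 ± 0.387 CPM. The groups overlapped, and the log2 fold change of -0.06 (standard error 0.08, 95% interval -0.24 to 0.11, edgeR adjusted p = 0.527) has its whole interval inside the 1.5-fold limits. Notch2 shares 5.02% of its exonic length with Gm42820 on the same strand, and Notch3 6.03% with Gm17276 on the opposite strand.

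**Figure D1:**
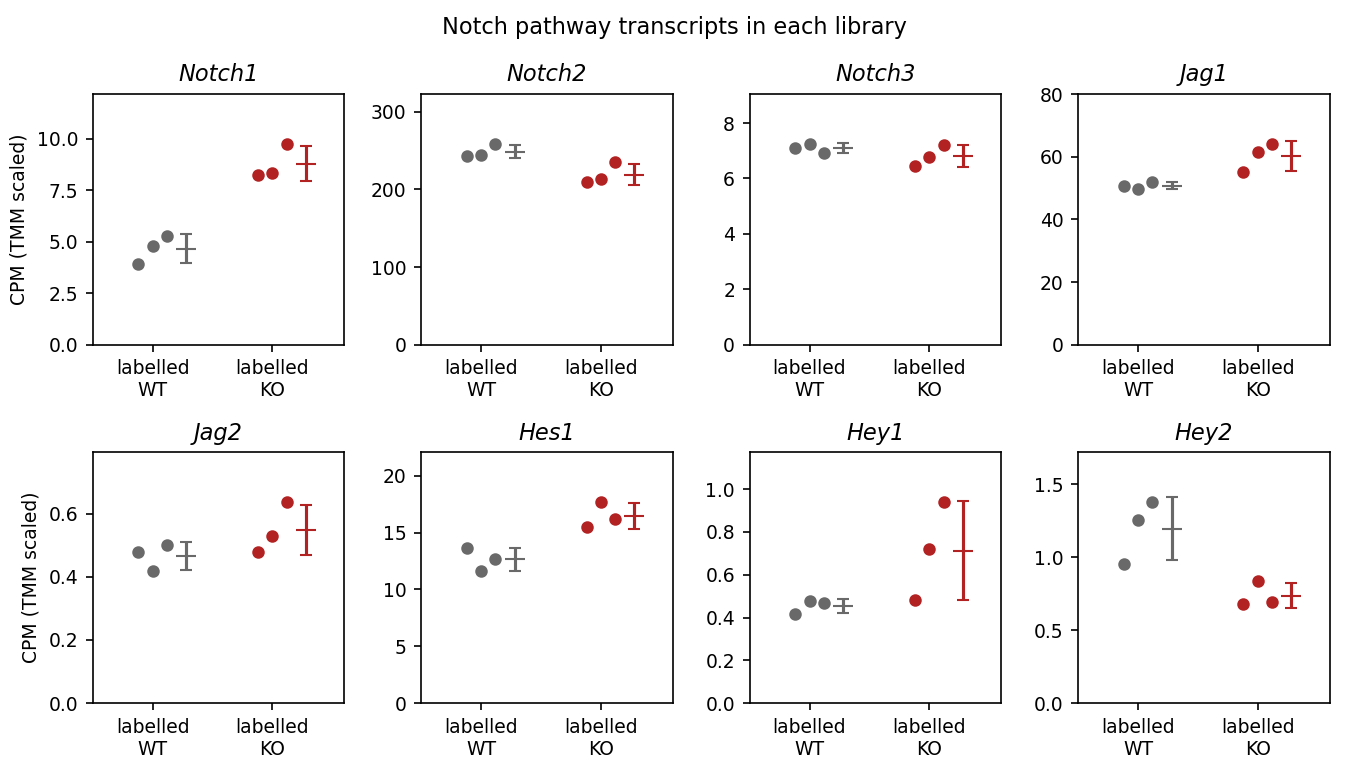
Level of the 8 listed members in each library, as TMM-scaled CPM on axes that start at 0. Points are libraries, bars are the mean ± SD of 3 libraries, grey is labelled WT and red labelled KO. Notch1 is higher in all 3 KO-labelled libraries (means 4.67 and 8.78 CPM), Hey2 is lower in all 3 (1.20 and 0.738 CPM), and the groups overlap for Notch3 and Jag2.

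Of the ligands, neither was called, and Jag2 had far fewer counts than Jag1. Jag1 (ENSMUSG00000027276.7, chromosome 2 from 137081456 to 137116644, minus strand), a transmembrane ligand of the Jagged type, had 1591, 1659 and 1659 counts in the WT-labelled libraries and 1948, 2568 and 2117 in the KO-labelled ones. Levels were 50.8 ± 1.22 and 60.3 ± 4.71 CPM, with no overlap between the groups. The log2 fold change was 0.25 (standard error 0.05, 95% interval 0.14 to 0.36, edgeR adjusted p = 0.00117), 1.19-fold and short of the fold limit. Jag2 (ENSMUSG00000002799.6, chromosome 12 from 112907819 to 112929776, minus strand) had 15, 14 and 16 counts in the WT-labelled libraries and 17, 22 and 21 in the KO-labelled ones, and once scaled to CPM the groups overlapped. Its log2 fold change of 0.23 (standard error 0.25, 95% interval -0.33 to 0.78, edgeR adjusted p = 0.497) has an interval of 0.798 to 1.72 in folds, which does not exclude a 1.5-fold rise of Jag2.

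Among the effectors, Hey2 fell, Hes1 was higher by less than the fold limit, and Hey1 was not called. Hes1 (ENSMUSG00000022528.8, chromosome 16 from 30064384 to 30067796, plus strand), a repressor that Notch and other pathways can induce, had 427, 388 and 405 counts in the WT-labelled libraries and 547, 736 and 534 in the KO-labelled ones. Levels were 12.6 ± 1.02 and 16.4 ± 1.13 CPM, and every KO-labelled library was above every WT-labelled library. The 1.30-fold difference, a log2 fold change of 0.38 (standard error 0.07, 95% interval 0.22 to 0.54, edgeR adjusted p = 6.44e-04), was not called.

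Hey2 (ENSMUSG00000019789.9, chromosome 10 from 30832359 to 30842801, minus strand), a repressor known for its part in heart and vessel development and the member whose promoter window is printed above with an RBPJ core match, had 30, 42 and 44 counts in the WT-labelled libraries and 24, 35 and 23 in the KO-labelled ones. Raw counts overlapped, but after scaling every KO-labelled library was below every WT-labelled library, at 1.20 ± 0.216 and 0.738 ± 0.0886 CPM. Hey2 fell by 0.69 on the log2 scale (standard error 0.21, 95% interval -1.15 to -0.23, edgeR adjusted p = 0.0139), to 0.622 of its level in the WT-labelled libraries. The call rests on few counts: it was lost with DESeq2 (log2 fold change -0.69, adjusted p = 0.0589) and without labelled WT replicate 3 (-0.58, edgeR adjusted p = 0.0627), as well as with edgeR's glmTreat, which tests against the 1.5-fold limit itself, and adjusted p ranged from 0.00678 to 0.813 over all alternatives.

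Hey1 (ENSMUSG00000040289.8, chromosome 3 from 8663359 to 8667256, minus strand), a repressor of the same family, had 13, 16 and 15 counts in the WT-labelled libraries and 17, 30 and 31 in the KO-labelled ones. Labelled KO replicate 1 lay next to the libraries labelled WT and the other two stood apart, so that the coefficient of variation was 32.2% among the KO-labelled libraries and 7.55% among the WT-labelled ones. Levels were 0.454 ± 0.0343 and 0.713 ± 0.230 CPM, and the log2 fold change of 0.64 (standard error 0.29, 95% interval 0.01 to 1.26, edgeR adjusted p = 0.0746) was not called. Without labelled KO replicate 1 it was 0.84 (edgeR adjusted p = 0.0227) and was called. Adjusted p for Hey1 was 0.197 with DESeq2 and 0.110 with limma on the counts. Over all alternatives it ranged from 0.0227 to 1.0, a range that includes glmTreat, which tests against the 1.5-fold limit and not against no change. Whether Hey1 and Hey2 differ in their change was not tested.

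**Figure D2:**
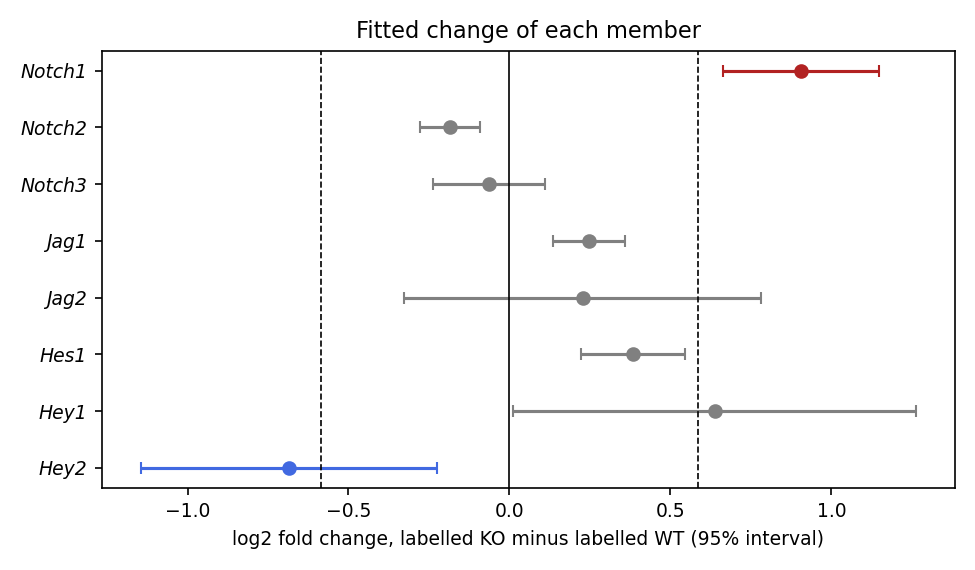
Fitted log2 fold change of the 8 listed members, labelled KO minus labelled WT, with 95% intervals. Dashed lines mark a 1.5-fold change, and red and blue mark members called higher and lower. The interval of Notch1 (0.66 to 1.15) lies wholly beyond the line, that of Hey2 (-1.15 to -0.23) spans it, and those of Notch2, Notch3, Jag1 and Hes1 lie between the lines.

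Levels of different members were compared only per length, as RPKM over the union of annotated exons. In the libraries labelled WT the order of mean levels was Notch2 (23.1 RPKM), Jag1 (8.71), Hes1 (6.20), Notch3 (0.877), Notch1 (0.328), Hey2 (0.261), Hey1 (0.139) and Jag2 (0.0669). Only Notch1 and Hey2 overlapped among neighbours in that order. In the KO-labelled libraries the order was Notch2 (20.3 RPKM), Jag1 (10.3), Hes1 (8.07), Notch3 (0.841), Notch1 (0.617), Hey1 (0.218), Hey2 (0.161) and Jag2 (0.0787), and only Hey1 and Hey2 overlapped. By this length the first 5 places were the same in both groups. Notch2, Jag1 and Hes1 stood well above the other members of their roles. Exon unions span 14232 bases for Notch1 and 2037 for Hes1, and their longest transcripts 9488 and 1468. In the KO-labelled libraries, the order of Jag1 and Hes1, and of Notch3 and Notch1, depends on which length is used.

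Expressed as a share of the 3 receptors per length, Notch1 made up 1.16%, 1.41% and 1.47% in the WT-labelled libraries and 2.79%, 2.77% and 2.94% in the KO-labelled ones. All 3 KO-labelled libraries were higher, and the means were 1.35 ± 0.164% and 2.83 ± 0.0926%, a difference of 1.48 percentage points (two-sided exact permutation p = 0.1, the smallest that 3 libraries against 3 can give, so p under 0.05 could not be reached). Notch2 made up 95.1%, 94.8% and 95.1% in the WT-labelled libraries and 93.4%, 93.3% and 93.2% in the KO-labelled ones, a difference in means of -1.73 points, and Notch3 3.62 ± 0.198% and 3.86 ± 0.0708% (exact permutation p = 0.1 for each). Notch2 thus remained the main receptor transcript in every library. Jag1 made up 99.2% of the ligand transcripts in both groups (exact permutation p = 1.0). In a pool of Hes1, Hey1 and Hey2, chosen after the values had been seen, Hey2 made up 3.98 ± 0.876% and 1.90 ± 0.105% (exact permutation p = 0.1), Hey1 2.12 ± 0.295% and 2.58 ± 0.793% (exact permutation p = 0.4), and Hes1 93.9 ± 1.15% and 95.5 ± 0.752% (exact permutation p = 0.2). The difference in the Hey1 share, 0.456 points, was 0.0276 without labelled KO replicate 3, 0.300 without labelled WT replicate 1 and 0.810 without labelled KO replicate 1. The difference in the Notch3 share, 0.245 points, was 0.131 without labelled WT replicate 3. Adjusted over the 8 shares tested (Benjamini-Hochberg), the lowest exact permutation p was 0.2.

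**Figure D3:**
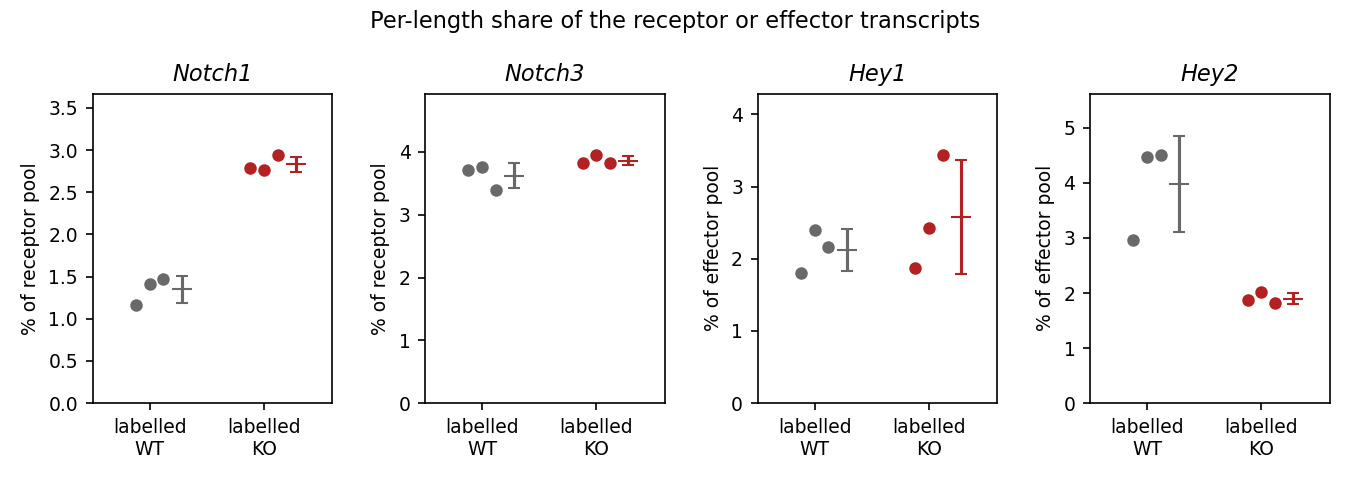
Per-length share of Notch1 and Notch3 among the 3 receptors and of Hey1 and Hey2 among Hes1, Hey1 and Hey2, in percent, for each library with the mean ± SD of 3. The Notch1 share is 1.35% in the WT-labelled libraries and 2.83% in the KO-labelled ones, and the Hey2 share is 3.98% and 1.90%.

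The rest of the pathway was read from lists of 79 genes by role, of which 69 were tested. Of these, 8 were called higher and 4 lower, 12 in all or 17.4% of those tested, near the 17.7% of all tested genes, and the median log2 fold change was -0.05. In the list of other receptors and ligands, Notch4, Dll1, Dlk1, Dlk2 and Ccn3 rose. Of these, Notch4, Dll1 and Dlk1 passed the expression filter only through the KO-labelled libraries, where they are high, so the count of genes that rose in this list is no support for a direction of the list. With at least 10 counts in every library, only Dlk2 and Ccn3 of the list were tested and called. Dll3, Dll4 and Dner are not listed in the counts table used here. Notch4, the receptor known from endothelium, had 7, 13 and 11 counts in the WT-labelled libraries and 27, 32 and 19 in the KO-labelled ones, without overlap (log2 fold change 1.13, standard error 0.28, edgeR adjusted p = 0.00412). Dll1, a ligand of the Delta type, had 11, 9 and 9 counts against 49, 54 and 54, again without overlap (log2 fold change 2.24, standard error 0.24, edgeR adjusted p = 4.29e-06). Dll1 shares 20.5% of its exonic length with A930024N18Rik on the opposite strand, which is not listed in the counts table used here.

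The other 3 genes of that list are not classical Notch ligands. Ccn3, a secreted matricellular protein reported to bind Notch1, had 89, 94 and 111 counts in the WT-labelled libraries and 497, 564 and 441 in the KO-labelled ones (log2 fold change 2.17, standard error 0.09, edgeR adjusted p = 6.40e-10). Dlk1, a membrane protein that resembles Delta but lacks its receptor-binding domain, had 3, 4 and 9 counts against 27, 23 and 24 (log2 fold change 2.00, standard error 0.37, edgeR adjusted p = 4.84e-04). Dlk2, its paralog, named here after its values were seen, had 69, 54 and 57 counts against 121, 127 and 110 (log2 fold change 0.81, standard error 0.14, edgeR adjusted p = 2.98e-04). Apart from Ccn3 and Dlk2, the genes of this list that rose did so from at most 13 counts in any WT-labelled library.

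Genes that mature, cut and read out the receptor were called in neither direction. Of 10 genes for cleavage, which include the ADAM proteases and gamma-secretase, 0 were called and 4 had an adjusted p under 0.05, among them the gamma-secretase subunit Psen2 (log2 fold change 0.33). Of 10 tested genes for receptor glycosylation 0 were called and 9 had an adjusted p under 0.05, where the shares of all tested genes were 17.7% and 58.7%. Lfng, a Fringe enzyme that alters which ligands a receptor answers to, was at 0.52 on the log2 fold change scale (standard error 0.12, edgeR adjusted p = 0.00227) and passed the 1.5-fold limit, among the alternatives tried, only without labelled WT replicate 1 (0.67). Of 9 genes for RBPJ and its coactivators 0 were called: Rbpj had a log2 fold change of -0.05 (95% interval -0.11 to 0.02, edgeR adjusted p = 0.215) and Maml1, a Mastermind coactivator, -0.09 (edgeR adjusted p = 0.0330). Psen2 and Lfng were named after their values were seen.

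Of 15 corepressor genes, 1 rose: Tle4, a Groucho-type corepressor that Hes proteins recruit, had 108, 105 and 116 counts in the WT-labelled libraries and 268, 288 and 214 in the KO-labelled ones, without overlap (log2 fold change 1.04, standard error 0.10, edgeR adjusted p = 2.01e-06). Of 17 tested genes for trafficking and turnover, 2 rose and 2 fell, where 11.6% and 6.10% of all tested genes did. Dtx4, a ubiquitin ligase of the Deltex family that acts on Notch receptors, had 837, 853 and 832 counts against 259, 316 and 214, the only gene of these role lists to fall by more than 1.5 on the log2 scale (-1.87, standard error 0.06, edgeR adjusted p = 1.11e-10).

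The Neuralized family of ubiquitin ligases, which includes regulators of ligand uptake, was split: Neurl3 (log2 fold change 1.74) and Neurl1b (1.38) rose and Neurl1a (-0.66) fell. Mib1, the main ligase for ligand uptake in mammals, was lower without overlap (log2 fold change -0.47, standard error 0.04, edgeR adjusted p = 4.51e-07). It was short of the fold limit and was not called. It was named after its values were seen. Of 8 other genes of the Hes type, 3 were tested and 2 fell, where 6.10% of all tested genes did. These were Bhlhe41 (log2 fold change -1.03), a repressor tied to the circadian clock, and Hes6 (-0.63), which counteracts Hes1 and is not a classical Notch target. Notch4, Dlk2, Neurl1a and Hes6 were not called with glmTreat, and Hes6 (-0.57) was not called with upper-quartile factors. Hes2, Hes3, Hes5, Hes7 and Helt are not listed in the counts table used here.

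**Figure D4:**
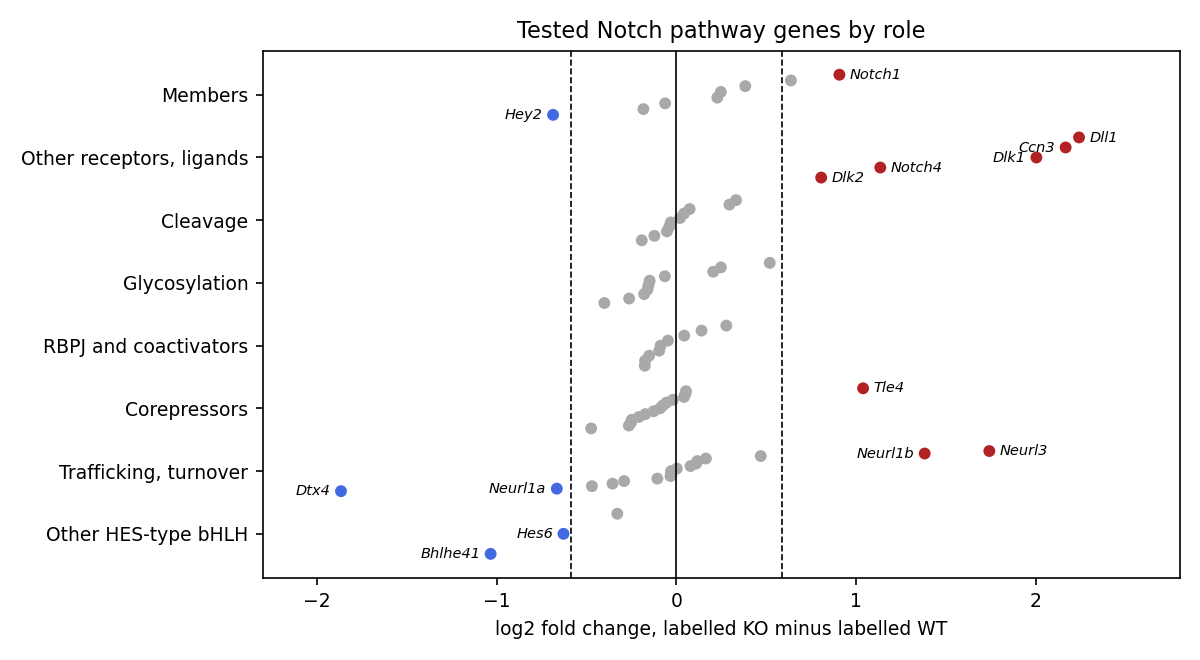
Log2 fold change, labelled KO minus labelled WT, of the 8 tested members and the 69 other tested pathway genes by role. Each point is a gene, red and blue mark genes called higher and lower, and dashed lines mark 1.5-fold. Among the other receptors and ligands, Notch4, Dll1 and Dlk1 passed the expression filter only through the KO-labelled libraries. The cleavage, glycosylation and RBPJ rows hold no called gene.

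Because Notch receptors and ligands mark vessels and epithelia as well as fibroblasts, markers of other cell types were read beside them. Of 10 endothelial markers 3 were listed (Esam, Vwf and Egfl7), with a summed level of 2.27 to 3.29 CPM in the WT-labelled libraries and 5.18 to 5.50 in the KO-labelled ones, and Egfl7 rose (log2 fold change 2.20), while Vwf (-0.44) and Esam (0.31) overlapped between the groups and were not called, and the defining markers Pecam1, Cdh5, Kdr and Tek are not listed in the counts table used here. Of 10 mural markers 2 were listed, with a summed level of 10.1 to 11.2 CPM against 25.4 to 28.7. Mcam rose (log2 fold change 2.52), and the member Notch3 was not called (-0.06). Rgs5, Myh11, Cspg4, Kcnj8, Abcc9, Higd1b, Heyl and Des are not listed in the counts table used here. Of 10 epithelial markers 5 were listed, with a summed level of 20.2 to 22.7 CPM against 44.0 to 45.5. Epcam, Krt18, Krt19, Cldn4 and Cpa1 are not listed in the counts table used here. Of the 4 tested, Krt7, Cdh1 and Cela1 rose, where 11.6% of all tested genes did. Sox9 was lower without overlap (log2 fold change -0.50, edgeR adjusted p = 1.73e-04) and short of the fold limit. Cdh1 had 10, 14 and 9 counts against 28, 33 and 19, and like Notch4 passed the expression filter only through the KO-labelled libraries. Krt8 had 1, 0 and 2 counts against 7, 9 and 12 and was not tested. Of 10 immune markers 4 were listed, at 40.6 to 46.5 CPM against 39.3 to 41.3. Most of that sum was Lyz2, at 37.4 to 43.3 CPM in the WT-labelled libraries and 36.0 to 37.5 in the KO-labelled ones. Of the 4, 0 were called, where 17.7% of all tested genes were. Ptprc, Adgre1, Itgam, Cd3e, Cd79a and Tyrobp are not listed in the counts table used here. The higher summed endothelial and mural levels in the KO-labelled libraries, where Notch1, Notch4 and Dll1 were also higher, thus each came with 1 gene that rose, Egfl7 and Mcam. The higher summed epithelial level came with Krt7 (log2 fold change 2.40), Cela1 and Cdh1. Mean levels in the WT- and KO-labelled libraries were 4.38 and 23.1 CPM for Krt7, 8.04 and 14.7 for Cela1, and 0.340 and 0.719 for Cdh1. The part of these cell types in the results was not tested. In such bulk samples, fewer cells of a type and less RNA per cell cannot be told apart.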

How the data were processed

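The authors deposited raw counts of reads per gene and log2 CPM values from limma's voom. Per the submitters' processing notes the tools were STAR 2.7.2b, featureCounts and limma, with the build GRCm38.p6, and the annotation and use of strand are not given in the sources used here. No listed gene had under 20 counts over the 6 libraries.

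The test on these counts was run in edgeR 4.0.16 under R 4.3.3 (TMM factors, filterByExpr, quasi-likelihood F test, a single group term), and standard errors were taken from each log2 fold change and its F statistic. The script was tested on simulated data. Between libraries of a group, chi-square per degree of freedom was 2.50 to 7.74, so none was counted as a duplicate. The common biological coefficient of variation was 3.74%. Shares of counts carry culture, library and counting error together, and intervals and the 3-count floor do not cover amplification.

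RPKM used the union exon length in GENCODE M21, which matched 14822 identifiers without version. Members and lists were chosen with earlier results of these data known. Besides the 10 members, up to 3 called genes in each direction with a median of at least 10 counts in the higher group were named from each role list, with Notch4, Dll1, Dll3, Dll4, Rbpj, Maml1, Gli1, Gli2, Gli3, Ptch1 and Hhip (not listed in the counts table used here) always named. Alternatives were scaling by RLE, by upper quartile or by total counts, 2 other filters, DESeq2 1.42.0, limma 3.58.1 on the counts and on the deposited log2 values, edgeR's glmTreat, 2 other fold limits, other length definitions and leaving out each library in turn. A single result is not reported here.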

Additional observations from a re-analysis of the deposited data

How the results depend on the processing

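Over the whole table, glmTreat called 1161 genes higher and 543 lower. No fold limit gave 4277 higher and 4114 lower, and a limit of 2-fold gave 1052 and 404. Notch1 kept its direction in every alternative (log2 fold change 0.80 to 1.00 with 1 library left out) and its call in all but the 2-fold limit (0.91). Members called lower fell to 0 with DESeq2, glmTreat and a 2-fold limit, where Hey2 was at -0.69, and ranged from 0 to 1 with 1 library left out (Hey2 -0.82 to -0.58). Members called higher ranged from 1 to 2 with 1 library left out (Hey1 0.42 to 0.84) and fell to 0 at 2-fold. With no fold limit 3 members were called higher and 2 lower, adding Notch2 (-0.18), Jag1 (0.25) and Hes1 (0.38).

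Other receptors and ligands called higher fell to 2 with at least 10 counts in every library, where fewer genes were tested, and to 3 with glmTreat. Trafficking genes called lower fell to 1 with glmTreat and at 2-fold, and other Hes-type genes called lower fell to 1 there and with upper-quartile factors. With no fold limit the calls were 2 higher and 2 lower for cleavage, 3 and 6 for glycosylation, 2 and 3 for RBPJ and coactivators, 7 lower for corepressors, and 6 and 6 for trafficking. Glycosylation genes called higher ranged from 0 to 1 with 1 library left out (Lfng, without labelled WT replicate 1). Rbpj, not called, changed sign with upper-quartile factors (0.010), which move the median of all genes by 0.06.

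The Notch1 share differed by 1.95 points without division by length and 2.13 with the longest transcript, and the Notch2 share by -2.12 and -2.34. Without division by length, chosen after the data were seen, the effector shares differed by 3.53 (Hes1) and -4.31 points (Hey2). Jag2, Hey1 and Hey2 had 13 to 44 counts a library and the widest intervals of the members. No paired analysis was possible because the labels give no replicate numbers shared between the groups.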
